A study of Mus musculus with 8 samples.

Results

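Imprinted noncoding RNAs and their coding neighbors were followed in total RNA and in RNA bound to Argonaute (Ago) proteins during neural differentiation of mouse embryonic stem (ES) cells. The genes are Meg3, Rian, Mirg and Dlk1, H19 and Igf2, Airn and Igf2r, and Kcnq1ot1 and Cdkn1c, grouped by imprinted domain. They were chosen by name, as the non-control probes whose gene name on the array is that of a member. Of 10 genes, 9 had such probes, which gave 23 of the 55681 probes and 9 of the 36163 gene names on the arrays. The 5 noncoding RNAs had 18 probes and the 4 coding genes had 5. Rian had no probe under its name and is described from probes that lie inside its annotated interval.

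All cells were of the E14Tg2A line, derived from the 129/Ola mouse strain. Stages are timed in days of in vitro differentiation (DIV). Cells were collected as ES cells kept on gelatin in serum with LIF (0 DIV), as floating aggregates resembling the epiblast (ELA, 2 DIV) in a chemically defined medium, as neural progenitor cells (NPC, 6 DIV) plated on poly-ornithine and laminin, and as neural precursors (NPC/Neu, 10 DIV), for which the supplement B27 had been withdrawn. At each stage RNA was immunoprecipitated from the cytosolic fraction with an antibody against all Ago proteins (Ago–RNA), and total RNA was labeled beside it. Each of the 8 arrays received RNA pooled from 3 independent experiments, so there was 1 array per condition, no replicate, and no p-value or SD over samples. The probes do not tell the parental alleles apart.

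A single slide carried all 8 arrays. The scanner software placed between 53.5% and 61.2% of the spots of an array well above background and marked no spot as saturated. In total RNA the summed signals of ES, ELA and neuronal markers were highest at their own stage. That of NPC markers was highest in NPC/Neu. The summed signal of 6 ES markers (Pou5f1, Nanog, Zfp42, Klf4, Esrrb, Nr0b1) was 0.263 of its ES value in ELA and 0.0255 in NPC, and that of 5 NPC markers (Sox1, Pax6, Nes, Hes5, Fabp7) was 16.8 times its ES value in NPC and 32.5 times in NPC/Neu. ELA markers (Fgf5, Pou3f1, Otx2, Eomes) were at 1.85 times their ES value in ELA, and neuronal markers (Tubb3, Dcx, Nefl, Elavl3) at 11.6 times theirs in NPC/Neu. The ES sum was 0.0486 of its ES value in NPC/Neu, above that in NPC. The ELA sum, in which Otx2 was brightest, was still 0.840 of its ES value in NPC and 0.981 in NPC/Neu. The log2 signal of Eomes was 9.29 in ELA and 11.33 in NPC/Neu. Signals are log2 values after background correction and quantile normalization over the 8 arrays, averaged over the probes of a gene. Enrichment in Ago–RNA (E) is the log2 signal in Ago–RNA minus that in total RNA at the same stage. A gene was called when E, or a change of total RNA between stages, reached 1 on the log2 scale in either direction, which is a size rule and not a test. Probes printed in 10 spots gave an SD of E between spots of 0.19 where their mean log2 signal was under 8, 0.11 from 8 to 11 and 0.06 above 11. This covers noise within an array only.

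Imprinted genes are transcribed mainly from the maternal or from the paternal chromosome, and their domains often pair a long noncoding RNA with coding genes that are expressed from the opposite parental chromosome. Airn and Kcnq1ot1 are paternally expressed transcripts known to silence neighboring genes in cis, among them Igf2r and Cdkn1c, and Airn runs across Igf2r on the other strand. H19 is maternally expressed beside the paternally expressed growth factor gene Igf2, and it carries the hairpin of miR-675. Meg3, Rian and Mirg are maternally expressed from 1 strand downstream of the paternally expressed Dlk1, and the stretch they cover holds a large cluster of miRNAs and small nucleolar RNAs. Ago proteins bind mature miRNAs and, through them, target transcripts in the cytoplasm.

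Probes against the noncoding RNAs are shown because the enrichment values below are those of these exact stretches. They are given 5′ to 3′ as printed on the array, in lower case, and none of them overlaps the annotated hairpin of a miRNA. Positions are in mm9, the build of the array annotation.
Meg3, chr12:110809678-110809737, plus strand, nearest the 3′ end: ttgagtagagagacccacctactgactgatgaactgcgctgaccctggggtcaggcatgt
Mirg, chr12:110979653-110979712, plus strand: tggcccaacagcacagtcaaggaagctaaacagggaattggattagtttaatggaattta
Mirg, chr12:110987569-110987628, plus strand: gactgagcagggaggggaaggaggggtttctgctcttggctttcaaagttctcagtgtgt
H19, chr7:149761492-149761551, minus strand, nearest the 3′ end: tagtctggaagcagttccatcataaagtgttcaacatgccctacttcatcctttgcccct
H19, chr7:149762417-149762476, minus strand, farthest from the 3′ end: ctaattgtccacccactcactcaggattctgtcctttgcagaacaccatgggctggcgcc
Airn, chr17:12944784-12944843, plus strand, inside an intron of Airn and, on the other strand, of Igf2r: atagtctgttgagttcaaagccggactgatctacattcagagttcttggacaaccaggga
Kcnq1ot1, chr7:150440140-150440199, minus strand, inside an intron of Kcnq1 on the other strand: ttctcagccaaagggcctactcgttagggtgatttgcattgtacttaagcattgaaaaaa

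The mature miRNAs that these transcripts carry were not measured on these arrays. A few are given as RefSeq lists them on GRCm38.p6, with the seed (bases 2 to 8) in capitals, to show what the host transcripts hold. GENCODE places 1 miRNA gene within H19, 2 within Meg3, 4 within Rian and 9 within Mirg on the strand of the host, and the 24 mature sequences matched to them in RefSeq have 24 different seeds, so none share a seed.
mmu-miR-675-5p, from H19: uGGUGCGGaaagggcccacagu
mmu-miR-675-3p, from H19: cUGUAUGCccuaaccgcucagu
mmu-miR-370-3p, from the Rian interval: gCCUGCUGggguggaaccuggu
mmu-miR-410-3p, from the Mirg interval: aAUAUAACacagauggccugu

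Whether the noncoding RNA of an imprinted domain was present in Ago–RNA in proportion to its total RNA was compared with the same ratio for its coding neighbor. Ago–RNA came from the cytosolic fraction and no array of cytosolic input was analysed here, so RNA kept in the nucleus and cytosolic RNA not bound to Ago cannot be told apart in E. Meg3, Mirg, Airn and Kcnq1ot1 had negative E at all 4 stages, and H19 had positive E that reached 1.91 in NPC. Dlk1, Igf2 and Cdkn1c lay between -0.55 and 0.70, and Igf2r had E of at least 1.06 at every stage. The lowest of these, Igf2 in ES cells, was -1.25 or -1.85 with the scanner's processed signal, depending on the normalization. In ES cells 3 of the 5 noncoding RNAs were at or below -1, against 10.5% of 25320 genes tested, and 1 of the 4 coding genes was at or above 1, against 9.36%. In ELA 3 noncoding RNAs were at or below -1 (3.38% of 22991 genes) and H19 and Igf2r were at or above 1 (3.84%). In NPC 3 noncoding RNAs were at or below -1 (5.81% of 24292 genes) and again H19 and Igf2r were at or above 1 (5.34%). In NPC/Neu 4 noncoding RNAs were at or below -1 (11.6% of 24210 genes) and Igf2r alone of the members was at or above 1 (10.9%). The median E of the noncoding RNAs was -1.76, -1.29, -2.08 and -2.59 at ES, ELA, NPC and NPC/Neu, and that of the coding genes was 0.04, 0.09, 0.38 and 0.18, beside medians of 0.04, -0.03, 0.01 and 0.04 over all tested genes.

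**Figure D1:**
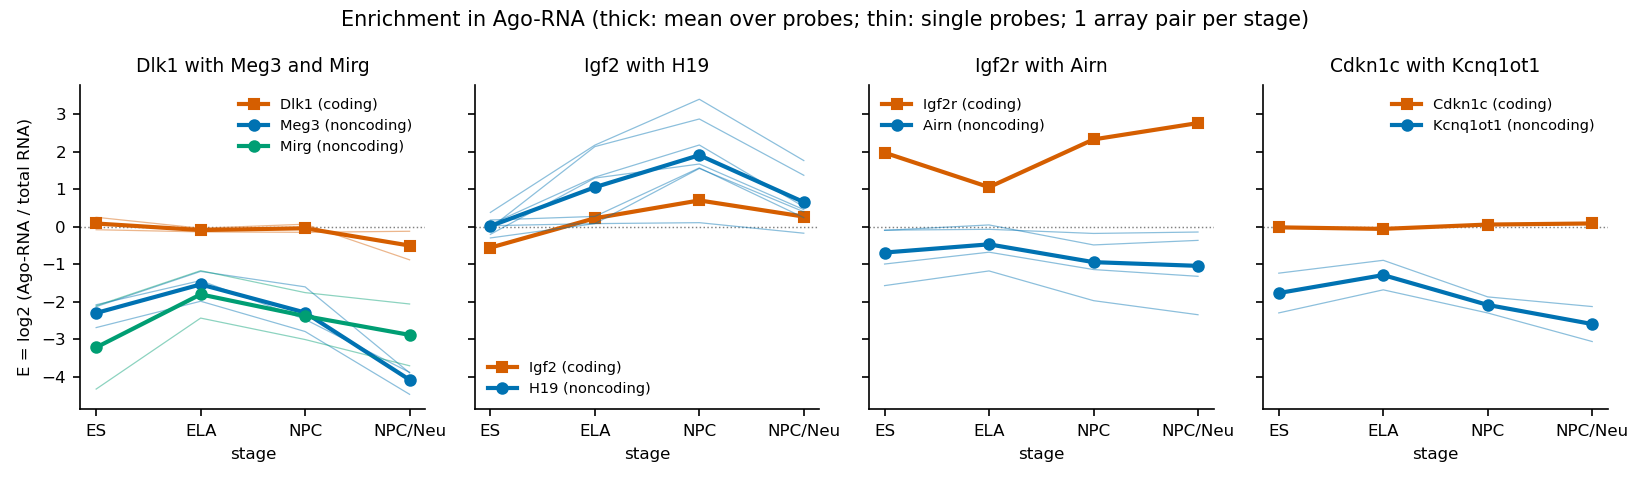
E (log2 Ago–RNA over total RNA) of each member at the 4 stages, by imprinted domain, from 1 pair of arrays per stage. Thick lines with squares are coding genes and with circles noncoding RNAs (means over probes), and thin lines are single probes; noncoding lines lie below the coding line in 3 domains, and H19 lies above Igf2, at 1.91 against 0.70 in NPC.

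The mean E of the noncoding RNAs was below that of the coding gene of the same domain in 12 of the 16 combinations of domain and stage, and the 4 exceptions were the 4 stages of H19 and Igf2. In the Dlk1 domain the difference, noncoding minus coding, was -2.84, -1.58, -2.29 and -2.98 from the first to the last stage. Between Airn and Igf2r it was -2.66, -1.52, -3.27 and -3.81, and the last of these was the widest of the 16. Between Kcnq1ot1 and Cdkn1c it was -1.75, -1.23, -2.14 and -2.68. H19 exceeded Igf2 by 0.57, 0.83, 1.21 and 0.38. With separate quantile normalization of the 4 Ago–RNA and the 4 total RNA arrays the difference was 0.81 in NPC and -0.03 in NPC/Neu. With the median over probes it was 0.89 in NPC, and with the brightest probe of each gene it was 2.70 in NPC and 1.49 in NPC/Neu. In the 3 domains with a negative difference, the difference was smallest in ELA and largest in NPC/Neu. Over all tested genes, E was also least often at or beyond 1 in ELA (3.84% above, 3.38% below). It was most often so in NPC/Neu (10.9% and 11.6%).

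**Figure D2:**
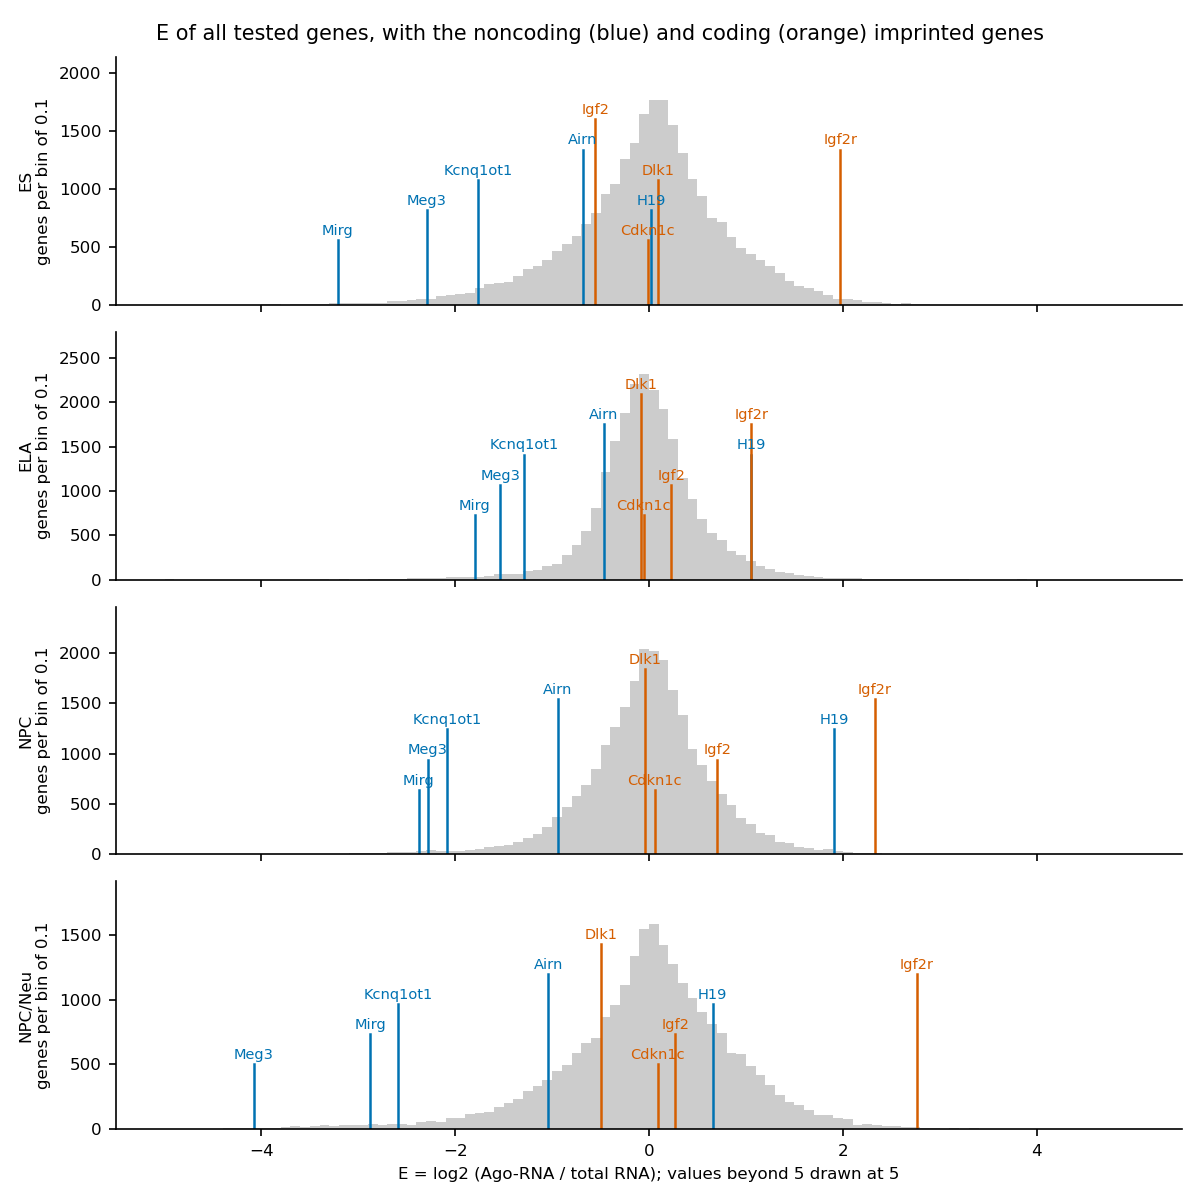
Number of genes per bin of 0.1 in E at each stage, over the genes well above background on at least 1 of the arrays compared (grey), with the noncoding (blue) and coding (orange) members marked. Meg3, Mirg and Kcnq1ot1 lie in the lower tail at every stage, between percentiles 0.19 and 2.87, and Igf2r lies in the upper tail, between percentiles 96.7 and 99.9.

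Meg3 (GENCODE chr12:110779211-110809936, plus strand), a long RNA that is largely kept in the nucleus, was bright in total RNA and depleted from Ago–RNA throughout. Its mean log2 signal over 3 probes was 13.39, 13.98, 12.08 and 13.86 in total RNA, and 11.10, 12.44, 9.80 and 9.78 in Ago–RNA. E was -2.30, -1.53, -2.29 and -4.08, the last of which is a 16.9-fold lower signal in Ago–RNA and stands at percentile 0.19 of the genes tested. From NPC to NPC/Neu, Meg3 total RNA rose 3.43-fold while its mean Ago–RNA signal differed by -0.01 on the log2 scale. Single probes changed at that step by -0.48, -0.04 and 0.49 in Ago–RNA and by 1.19, 1.37 and 2.78 in total RNA. All 3 probes lie in exons, were well above background on all 8 arrays and showed the same order of stages for the lowest and the highest E. The probe at chr12:110782745-110782804 has 54 of its 60 bases inside the annotated miRNA gene Mir1906-1. It had the lowest E of the 3 at every stage, -4.46 in NPC/Neu. The printed probe, 199 bases upstream of the 3′ end, had E of -2.08, -1.43, -2.47 and -3.88.

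Mirg (chr12:110973191-110987665), the host of a cluster of miRNAs, also had negative E at every stage. Total RNA was 14.47, 14.83, 12.48 and 13.04 at the 4 stages, and Ago–RNA was 11.26, 13.03, 10.10 and 10.16. E was -3.21 in ES cells, where it stood at percentile 0.19, and -1.80, -2.38 and -2.88 at the later stages. Its 2 exonic probes, printed above, disagreed in size and agreed in sign. The probe 37 bases from the 3′ end had E of -2.10, -1.17, -1.75 and -2.06, and the probe 7953 bases upstream had -4.32, -2.43, -3.0 and -3.70. Both had their least negative E in ELA. A total of 15 probes lie on the Mirg strand in its interval, most of them listed under other names. The median E of those well above background in total RNA was -1.82, -1.17, -0.91 and -1.18 at the 4 stages. Of these, 14 of 15, 11 of 15, 6 of 14 and 11 of 15 were at or below -1. The share over all tested genes was 10.5%, 3.38%, 5.81% and 11.6%. Some of the probes counted in NPC and NPC/Neu were not well above background in Ago–RNA, which limits how negative their E can be.

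The Ago–RNA signals of Meg3 and Mirg lay at every stage above the study's binding threshold, which came to 7.82 when refitted here from the lower component of a mixture of 2 normal distributions (its mean and 3 SD). Signal above that threshold and enrichment over total RNA are thus different readouts for these RNAs.

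Dlk1 (chr12:110691033-110701546), a transmembrane Notch-family ligand, showed no enrichment or depletion of the size called here. Total RNA was 9.56, 8.78, 9.66 and 12.54 at the 4 stages, and E was 0.09, -0.09, -0.04 and -0.50. The NPC/Neu value came from 2 probes that differed, at -0.12 and -0.88, and the lower one lies in the coding sequence 2985 bases from the 3′ end. The other probe had no exact match on the chromosome and was placed by its name only.

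Along differentiation, total RNA of Dlk1, Igf2 and Cdkn1c ended higher than in ES cells, and that of Mirg ended lower. From ES to ELA no member reached the size rule, against 4.45% of 24540 genes higher and 4.58% lower. From ELA to NPC, Igf2, Cdkn1c and Airn rose (10.4% of 24901 genes) and Meg3 and Mirg fell (9.61%). From NPC to NPC/Neu, Dlk1, Cdkn1c and Meg3 rose (5.38% of 24595 genes) and no member fell (3.96%). From ES to NPC/Neu, the 3 coding genes Dlk1, Igf2 and Cdkn1c rose, by 7.89-fold, 7.42-fold and 12.6-fold, and Mirg fell by 1.43 on the log2 scale, so that 4 of 9 members were called in either direction, against 31.9% of 25632 genes. Consecutive changes share an array, and E shares its total RNA array with the changes of total RNA. In these bulk samples, fewer cells of a type and less RNA per cell cannot be told apart.

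**Figure D3:**
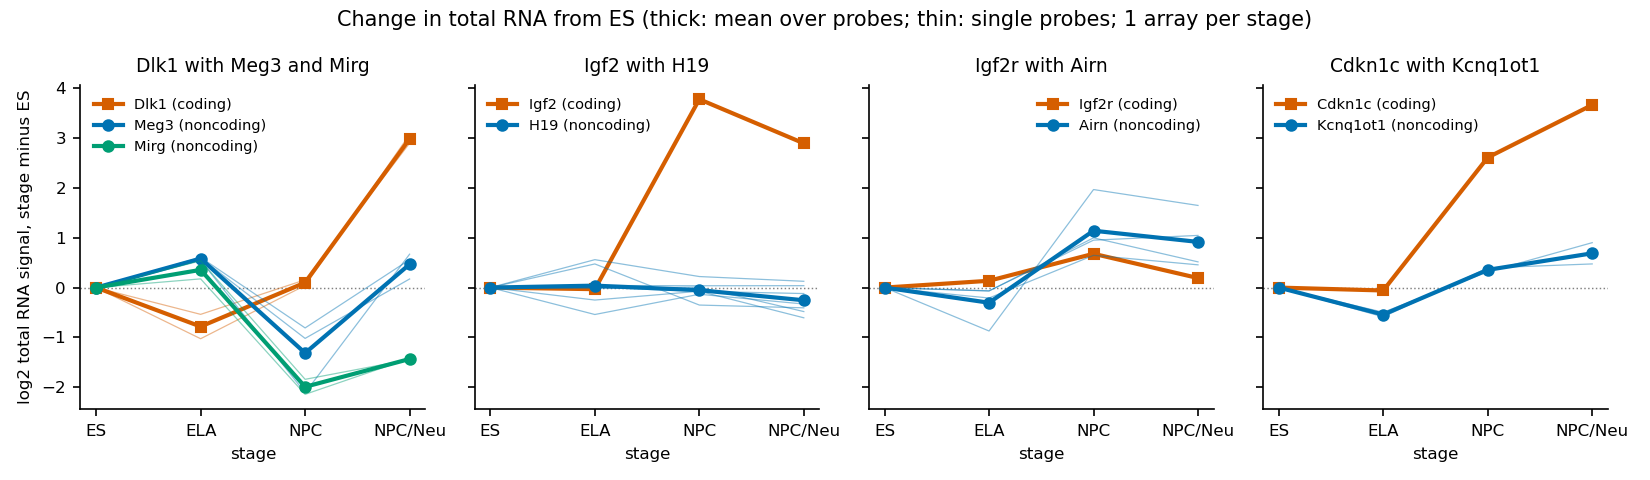
Log2 total RNA signal at each stage minus that in ES cells, by imprinted domain, 1 array per stage. Thick lines are means over probes (squares coding, circles noncoding) and thin lines single probes; Dlk1, Igf2 and Cdkn1c end 2.98, 2.89 and 3.66 above ES, and Mirg ends 1.43 below it.

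In the Dlk1 domain the noncoding RNAs fell in NPC, and Dlk1 rose in NPC/Neu. From ELA to NPC, Meg3 fell by 1.89 and Mirg fell by 2.34 on the log2 scale, while the change of Dlk1 was 0.88. From NPC to NPC/Neu, Dlk1 rose 7.37-fold and Meg3 rose 3.43-fold, and the change of Mirg was 0.56. Both Dlk1 probes rose at that last step, and all 3 Meg3 probes fell and then rose, with the exonic probe 10319 bases from the 3′ end falling by 2.66 and rising by 2.78.

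Rian (chr12:110842155-110899919), the host of many box C/D small nucleolar RNAs, was read from 14 probes on its strand inside the interval, 7 in annotated exons and 7 in introns, which the array lists under the names of lincRNA regions. Of these, 13 were well above background in total RNA at ES or ELA. From ELA to NPC 12 of the 13 fell by at least 1, beside 9.61% of all tested genes. The median change was -1.85 and the highest was -0.97. None of the 13 reached the size rule from NPC to NPC/Neu. E at the exonic probes had medians of -1.35, -0.70, -1.10 and -1.27 at the 4 stages. In NPC/Neu 6 of the 7 exonic probes were at or below -1, and in ELA 1 of 7, beside 11.6% and 3.38% of all tested genes. The 2 probes nearest the 3′ end of Rian, 117.1 and 118.8 kb from the start of Meg3, differed from the others in ELA, with E of 0.51 and 0.56, and had E of -0.76 and -0.66 in ES cells and of -1.11 and -1.17 in NPC/Neu.

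The whole stretch from the start of Meg3 to the end of Mirg held 48 probes on the Meg3 strand, of which 3 are Meg3 probes and 2 are Mirg probes. In ES cells 46 of them were well above background in total RNA, and all 46 had negative E, with a median of -1.65. Of these, 36 were at or below -1, beside 10.5% of all tested genes. The median at the 3 later stages was -0.93, -1.10 and -1.36, and none was at or above 1 at any stage. Some of the probes counted were not well above background in Ago–RNA. From ELA to NPC 42 of 47 probes fell by at least 1, beside 9.61% of all tested genes. The median change was -1.88 and the highest was -0.54, so none rose. The 16 probes between the annotated genes had a median E of -1.55 in ES cells, beside -1.34 for the 12 of 14 Rian probes that were well above background and -1.82 for the 15 in Mirg. The lowest E in ELA, -3.14, was at the probe named EU616813, 189.8 kb from the start of Meg3, where the other 3 stages ranged from -1.58 to -1.28. On the opposite strand 17 of 27 probes were well above background in total RNA in ES cells, with a median E of -0.68. Of these 17, 15 had negative E and 7 were at or below -1. In ELA 7 of 15 on that strand were at or below -1, with a median of -0.71. On the Meg3 strand it was 22 of 47 in ELA, beside 3.38% of all tested genes, so negative E was not confined to 1 strand.

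**Figure D4:**
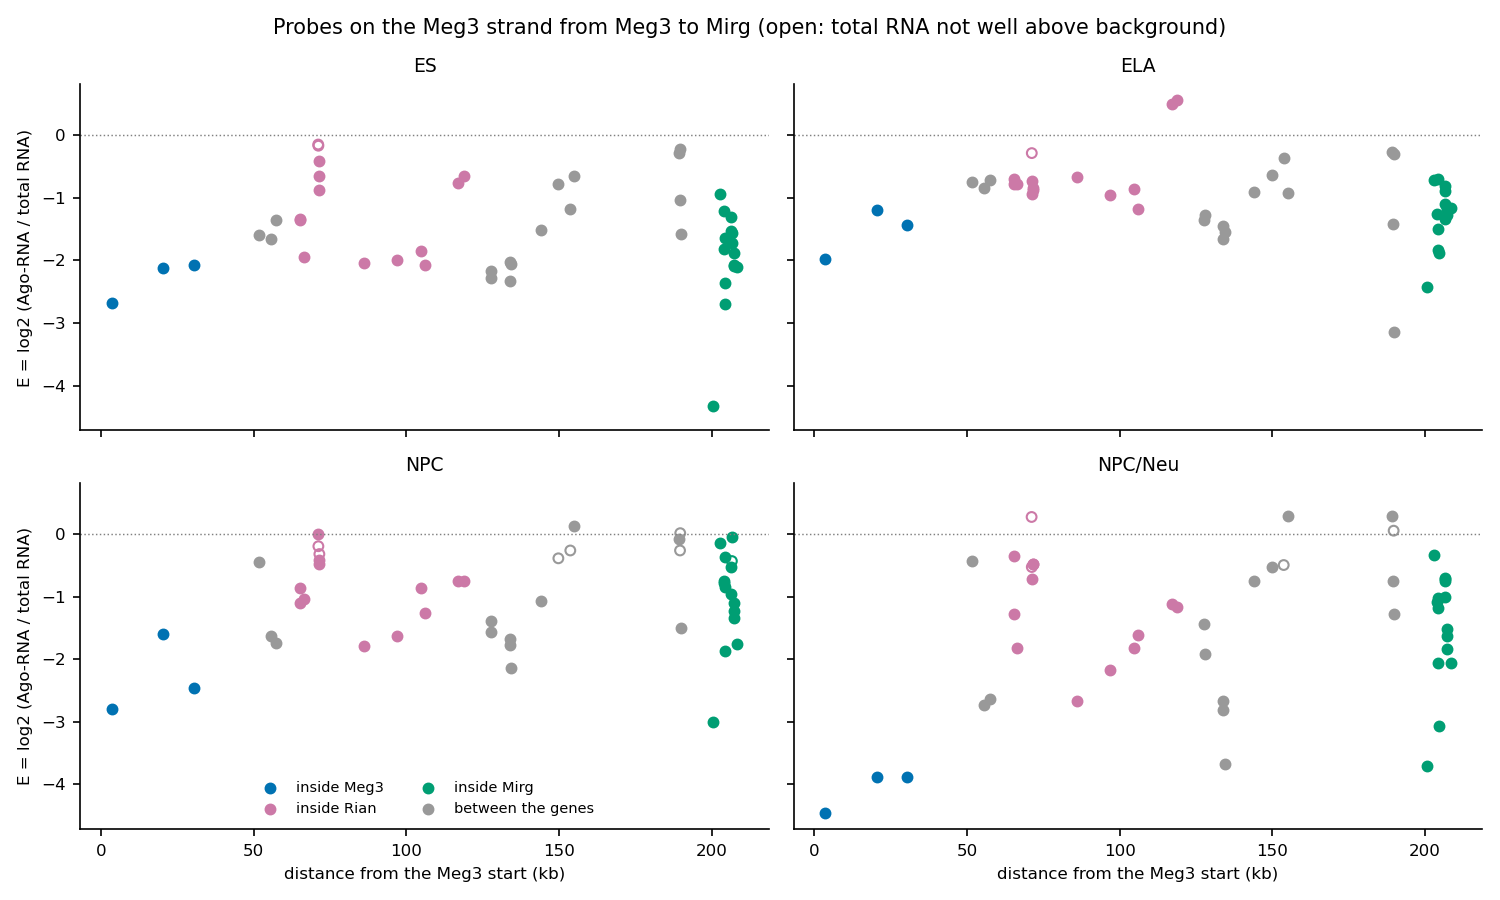
E of the probes on the Meg3 strand against their distance from the start of Meg3 in kb, at the 4 stages; color gives the annotated gene, and open circles are probes not well above background in total RNA. Most points lie below 0 at every stage, and the 2 probes at the 3′ end of Rian lie at 0.51 and 0.56 in ELA.

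H19 (chr7:149761434-149764048, minus strand), an abundant cytoplasmic RNA of fetal tissues, was the noncoding member with positive E. In total RNA it was dim, with means over 7 probes of 7.41, 7.45, 7.36 and 7.15 at the 4 stages and only 3 to 5 of the 7 probes well above background on an array. In Ago–RNA the means were 7.43, 8.50, 9.26 and 7.81. E was 0.02, 1.05, 1.91 and 0.66, and the NPC value stood at percentile 99.5 of the genes tested. Ago–RNA of H19 thus rose from ES to ELA by 1.07 and fell from NPC to NPC/Neu by 1.45, whereas no step of its total RNA was larger than 0.20 in size. With the median signal over probes in place of the mean, E in ELA was 0.47.

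The H19 probes differed in E, and those at 523 bases or more from the 3′ end were well above background on fewer arrays than the nearer ones. The probe nearest the 3′ end, 58 bases from it and printed above, was well above background on all 8 arrays. Its total RNA signal was 8.26, 8.25, 8.27 and 7.78, and its Ago–RNA signal was 8.65, 10.42, 11.67 and 9.55. Its E of 0.38, 2.18, 3.40 and 1.77 means a signal in Ago–RNA that was 10.5-fold that in total RNA in NPC. The next probe, at 259 bases, had E of -0.03, 2.14 and 2.87 in ES, ELA and NPC, and in NPC/Neu, where its total RNA was not well above background, Ago–RNA was at least 2.59-fold higher. At 322 bases E was 0.06, 1.32, 2.18 and 0.53. At 523, 679 and 739 bases E in NPC was 1.56, 1.57 and 1.67. For the probes at 523 and 739 bases Ago–RNA was at least 2.94-fold and 3.19-fold higher there, since total RNA was not well above background. In ELA, E at 523, 679 and 739 bases was 0.08, 0.28 and 1.30. Total RNA in ELA was not well above background at 679 and 739 bases. Ago–RNA was at least 1.21-fold and 1.87-fold higher there, beside 1.06-fold at 523 bases. E in ELA thus did not fall with distance among these probes. Position and signal level cannot be told apart here. The probe at 983 bases was well above background on 1 of the 8 arrays and gave no fold. All 7 probes lie 3′ of the miR-675 hairpin, by 493 to 1418 bases, so none reads the hairpin itself.

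By the limits of the study (E of at least 2 at one stage and at most 0.5 at the other, and a difference of at least 1.5), the 2 probes of H19 nearest its 3′ end were loaded onto Ago from ES to ELA, beside 0.199% of 37104 probes tested. They were the only member probes that met these limits at that step.

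**Figure D5:**
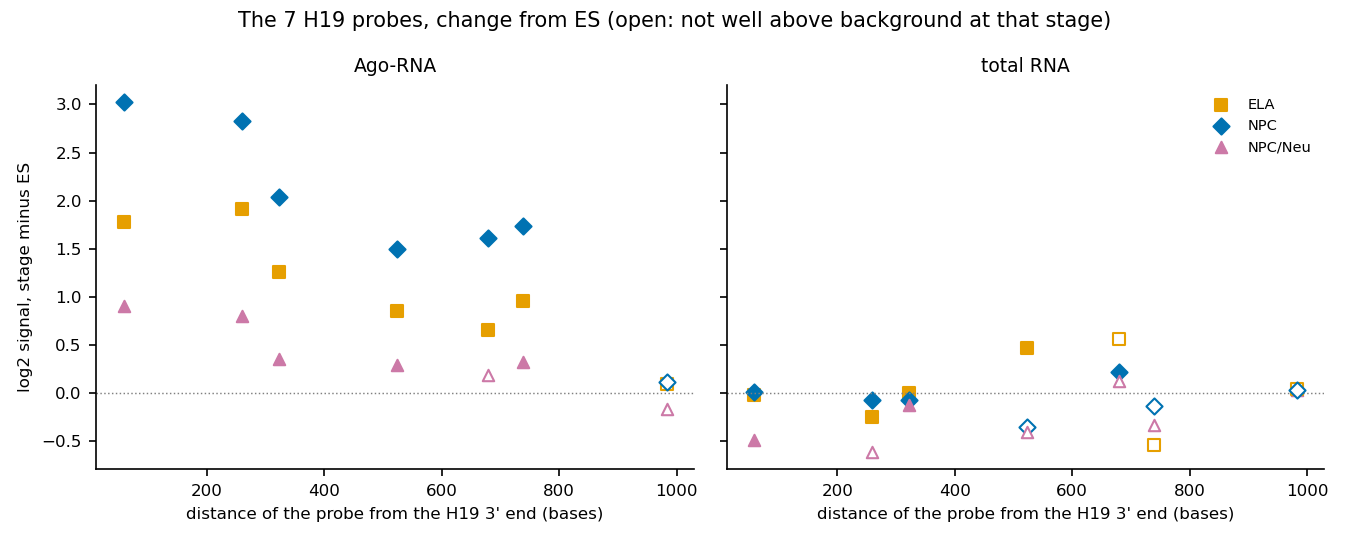
Log2 signal of the 7 H19 probes at ELA, NPC and NPC/Neu minus that in ES cells, in Ago–RNA (left) and total RNA (right), against the distance of the probe from the H19 3′ end in bases. Open symbols are probes not well above background at that stage; in Ago–RNA in ELA the values are 1.78 and 1.92 at the 2 probes nearest the 3′ end and 0.10 at the farthest, and in total RNA all values lie between -0.61 and 0.56.

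Igf2 (chr7:149836673-149852721, minus strand), the fetal insulin-like growth factor, was read by 1 probe in an untranslated region, well above background on all 8 arrays. Total RNA was 7.69, 7.66, 11.47 and 10.58 at the 4 stages, so Igf2 rose by 3.81 on the log2 scale from ELA to NPC. Ago–RNA was 7.14, 7.89, 12.17 and 10.86, and E was -0.55, 0.23, 0.70 and 0.27. Igf2as, a noncoding RNA on the other strand whose probe lies beyond the Igf2 interval, rose by 4.76 in total RNA from ELA to NPC and fell by 2.83 from NPC to NPC/Neu, with E of 0.59, 0.24, 0.24 and 1.48. H19 showed no rise in total RNA at the step where Igf2 rose: the difference between them, H19 minus Igf2, was -3.90 on the log2 scale.

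The summed signals of mesenchyme, endoderm and mesoderm markers rose in total RNA from ELA to NPC, as Igf2 and Cdkn1c did. Cdkn1c rose further in NPC/Neu, where the endoderm and mesoderm sums were below those in NPC. From ELA to NPC, 6 of 7 mesenchyme, 2 of 4 endoderm and 2 of 4 mesoderm markers tested rose by at least 1. The share over all tested genes was 10.4%. In NPC the sums for trophoblast, neural crest and muscle markers were 0.151, 0.888 and 1.35 times their ES values. The summed signal of 7 mesenchyme markers was 1616, 2155, 5600 and 5710 at the 4 stages, with 4, 3, 7 and 6 of the 7 well above background. That of 8 endoderm markers was 946, 1039, 2793 and 1846, with Gata6, Afp and Apoa1 not well above background at any stage and Ttr the brightest in NPC. That of 7 mesoderm markers was 2586, 2214, 6208 and 5470, with Mixl1 and Mesp1 not well above background at any stage and Kdr the brightest throughout. The part of such cells in the rise of Igf2 and Cdkn1c was not tested.

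Igf2r (chr17:12875272-12962530, minus strand), the receptor that takes up Igf2 for degradation and sorts lysosomal enzymes, was the coding member with the highest E. It was read by 1 probe printed in 10 spots, which had no exact match on its chromosome in mm9, so its place in the transcript is not given. Total RNA was 12.40, 12.53, 13.07 and 12.59 at the 4 stages and reached the size rule at no step. Ago–RNA was 14.37, 13.59, 15.40 and 15.35. Over spots, E was 1.98 ± 0.05 in ES cells (SD, n = 10 spots), 1.07 ± 0.03 in ELA (n = 9 spots), 2.33 ± 0.06 in NPC (n = 10 spots) and 2.77 ± 0.12 in NPC/Neu (n = 10 spots). The spots of a stage share 1 pair of arrays, so these SDs cover noise within an array only and do not serve to compare stages. The NPC/Neu value is a 6.80-fold higher signal in Ago–RNA, at percentile 99.9 of the genes tested.

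Airn (chr17:12934177-13052988, plus strand) had E of -0.69, -0.47, -0.94 and -1.04 at the 4 stages, as a mean over 4 probes of which 2 were near background, and the last value was -0.90 with separate normalization of each kind of array. The largest change was at the probe printed above, inside Igf2r on the other strand. Its total RNA was 9.88, 9.02, 11.85 and 11.53, its Ago–RNA was 8.32, 7.84, 9.88 and 9.19, and its E was -1.57, -1.18, -1.97 and -2.34. The exonic probe at chr17:13008078-13008137 had E of -0.99, -0.68, -1.14 and -1.32. The other 2 probes were well above background on 3 and 2 of the 8 arrays, with E between -0.48 and 0.05. Airn total RNA rose 2.72-fold from ELA to NPC, whereas Igf2r changed by 0.54 on the log2 scale.

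Other probes on the Airn strand, listed under lincRNA regions, gave values by position. All 6 probes where Airn overlaps Igf2r, the printed one among them, were at or below -1 in NPC and in NPC/Neu. Their medians were -1.34 and -1.66, and 5.81% and 11.6% of all tested genes were at or below -1 at these stages. Of the 14 probes beyond Igf2r, 11 were well above background in total RNA in NPC, and 2 of these were at or below -1, with a median of -0.15. Some of the 11 were not well above background in Ago–RNA.

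Cdkn1c (chr7:150644255-150646955, minus strand), a cyclin-dependent kinase inhibitor that stops the cell cycle, had the largest change of total RNA from ES to NPC/Neu among the members and E near 0 throughout. Its total RNA was 12.88, 12.82, 15.48 and 16.54, and it rose 6.34-fold from ELA to NPC and 2.08-fold from NPC to NPC/Neu. Ago–RNA followed, at 12.86, 12.76, 15.54 and 16.63. E was -0.01, -0.06, 0.06 and 0.09, between percentiles 46.4 and 54.2 of the genes tested. With scaling to the 75th percentile of the processed signal, its change from NPC to NPC/Neu was 0.80.

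Kcnq1ot1, which runs antisense to Kcnq1, was read by 2 probes. The probe printed above had total RNA of 11.07, 10.58, 11.39 and 11.97 and Ago–RNA of 8.78, 8.90, 9.09 and 8.91, with E of -2.29, -1.68, -2.30 and -3.06. At the other, chr7:150434020-150434079, E was -1.23 and -0.89 at the first stages, and total RNA was at least 3.65-fold higher than Ago–RNA in NPC and at least 4.36-fold higher in NPC/Neu, where Ago–RNA was not well above background. The mean total RNA was 9.85, 9.31, 10.20 and 10.53, with no step at the size rule, beside the 12.6-fold rise of Cdkn1c from ES to NPC/Neu. A further 5 probes spelled KCNQ1ot1 on the array match the opposite strand, that of Kcnq1, and were not counted as members. Of these 4 were well above background in total RNA in ES cells, with E between -2.45 and -0.09.

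Neighbors of the 4 domains were described from a list of 30 genes. E was at or beyond 1 for few of those tested: 1 higher and 2 lower of 24 in ES cells, 1 higher of 23 in ELA and none of 25 in NPC. The medians were 0.06, -0.11 and 0.17. Over all tested genes the shares were 9.36% higher and 10.5% lower in ES cells, 3.84% and 3.38% in ELA, and 5.34% and 5.81% in NPC. Begain had the value above 1 in ES cells (1.43), Phlda2 (-1.64) and Mrpl23 (-1.47) those below -1, and Cd81, a tetraspanin, that in ELA (1.67). Lsp1 had no usable spot in ES total RNA and was left out there. In total RNA from ES to NPC/Neu, 5 of 23 rose and 5 fell, with a median of -0.27, beside 31.9% of all tested genes in either direction. Begain rose by 3.46, Osbpl5 by 1.92 and Dhcr7, which makes cholesterol, by 1.57. Phlda2 fell by 5.40, Ascl2 fell by 4.17 and Slc22a18 fell by 3.69 on the log2 scale. These 3 genes and Osbpl5 lie in the window of Kcnq1ot1 and Cdkn1c, where 1 of 19 genes tested rose and 5 fell. Rtl1, a coding gene antisense to the Meg3 to Rian stretch, was well above background on 1 of the 8 arrays, and Kcnq1 on 2.

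Of 40 other names of imprinted genes, 39 had a probe, and the other, Zac1, is a synonym of Plagl1, which is listed too. From ES to NPC/Neu 15 of 38 tested rose and 5 fell, beside 31.9% of all tested genes in either direction. The median was 0.69, beside -0.05 over all tested genes. The 3 highest were Usp29 (4.37), Peg12 (4.26) and Ndn (3.67), and the 3 lowest were Calcr (-3.86), Sfmbt2 (-2.68) and Ddc (-2.43). E in NPC/Neu was at or above 1 for 8 of 38 (10.9% of all tested genes) and at or below -1 for 3 (11.6%), with a median of 0.34. Grb10 (2.31), a growth factor receptor adaptor, Peg3 (2.27), a zinc finger protein, and Zdbf2 (2.03) were highest, and Nnat (-1.34), Mcts2 (-1.24) and Commd1 (-1.15) lowest. Peg3 and Zdbf2 were above 1 at all 4 stages.

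Of 17 genes that set or keep imprints, bind Igf2 mRNA or are its receptors, 12 had E at or above 1 in ES cells, 2 in ELA, 7 of 16 tested in NPC and 10 of 16 in NPC/Neu, with medians of 1.25, 0.26, 0.68 and 1.27. The share of all tested genes at or above 1 was 9.36%, 3.84%, 5.34% and 10.9% at these stages. Dnmt1, the maintenance DNA methyltransferase, had E of 2.65, 1.16, 1.69 and 2.40. Igf1r, the receptor through which Igf2 signals, had 1.54, 0.93, 1.78 and 2.98, and Igf2bp1, which binds Igf2 mRNA, had 1.58, 0.53, 1.47 and 1.21. Lin28b, which blocks let-7 maturation, differed in order, with 1.34, 1.51, -0.12 and 0.14. Dppa3, which protects imprints after fertilization, fell in total RNA by 1.86 from ES to ELA and fell by 3.98 from ELA to NPC.

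Of 22 other noncoding RNAs, most of them nuclear or hosts of small RNAs, 19 had a probe, and Nespas and Peg13 are also among the other imprinted genes. E was at or below -1 for 10 of 16 tested in ES cells, 5 of 16 in ELA, 6 of 15 in NPC and 8 of 16 in NPC/Neu, and at or above 1 for Tug1 in ELA alone (1.03). The share of all tested genes at or below -1 was 10.5%, 3.38%, 5.81% and 11.6%, so it was also lowest in ELA. The median in NPC/Neu was -1.05, and the 3 lowest were Malat1 (-4.16), Gas5 (-2.64) and Mir17hg (-2.58). The medians of this list, -1.71, -0.55, -0.65 and -1.05, were least negative in ELA, as was E for Meg3, Mirg, Airn and Kcnq1ot1.

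The genes whose 8 log2 signals were most like those of a member, after each gene was centered on its mean, were found among 23109 genes well above background on at least 4 arrays. The measure was the root mean square difference, on the log2 scale. For Meg3 and for Mirg the nearest was the lincRNA region that lies between Rian and Mirg on the same strand (0.41 and 0.35), and the next was the mitochondrial ND1 for Meg3 (0.48) and a lincRNA region inside Rian for Mirg (0.44). Mirg ranked 3 among the genes nearest Meg3, and Meg3 ranked 5 among those nearest Mirg. Dlk1 was nearest Wif1 (0.24) and Grm8 (0.34), Igf2 was near Rprm (0.28), and Cdkn1c was nearest S1pr3 and Tram1l1 (0.16 each). Igf2r was nearest Crocc (0.18) and Dicer1 (0.22). H19 was nearest Efna3 (0.09) and Hist1h2be (0.14), Airn was near Tcap (0.14), and Kcnq1ot1 was near LOC553089 (0.13). No coding gene of a domain was among the 2 genes nearest its noncoding partner. Likeness over 8 arrays of 1 cell line describes these arrays only.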

How the data were processed

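Total RNA and Ago–RNA of 4 stages were hybridized to Agilent 1-color mouse arrays. The authors deposited spot intensity as written by the scanner software (Feature Extraction 10.7.3.1 in the file headers; the submitters' processing notes list 9.1), not normalized between arrays. Mean and background intensity were corrected by normexp with offset 50 in limma 3.58.1 (R 4.3.3), irregular spots (125 to 523 per array) were left out, and log2 signals were quantile normalized over 8 arrays. The offset is not given in the sources used here. Quantile normalization does not keep differences in overall recovery. Spots were averaged per probe and probes per gene. The threshold T1 was fitted with mclust 6.1.1. Genes with a probe well above background on at least 1 array compared were tested against the size rules. For some H19 and Kcnq1ot1 probes not well above background on 1 side, a lower bound against the dimmest probe above background is given. Elsewhere E is given as computed. Counts and medians of E over the probes of a strand were filtered on total RNA only, so Ago–RNA could be near background. Probes were matched to the mm9 sequence and GENCODE vM1. Python 3.11.15, numpy 2.4.6 and pandas 2.3.3 were used.

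Members and lists were chosen with earlier results of these data known. Named genes were all members and, of each list, those a result was set beside and the 3 highest or lowest. Markers of trophoblast, neural crest and muscle were fixed too, and none of these lists had a summed signal above 1.35 times its ES value at a later stage. On simulated arrays, 198 of 200 probes given a change in ES enrichment were called, and 0 of 55481 others. These arrays were copies of the ES total RNA array with small added noise. Only bright probes were changed, by more than the size rule. The run checks the calculation and cannot give error rates for dim probes or for differences between real arrays. Alternatives were offsets of 16 and 0, the processed signal, other normalizations, a filter on dim probes, and the brightest probe or the median over probes. Array number limits the precision. Some probes and genes are not reported here.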

Additional observations from a re-analysis of the deposited data

Results flagged for a closer look

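Igf2 was the member whose E lay on opposite sides of 0 at 2 stages by more than 2 SD of the spot noise, at -0.55 in ES cells and 0.70 in NPC. The difference between the stages was not tested, since each value comes from 1 pair of arrays. In ES cells the total RNA of Igf2 was 7.69 and its Ago–RNA 7.14, near background. No group had the 4 samples that a search for outlying samples needs.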

How the results depend on the processing

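No paired analysis was possible because each group holds 1 array. Of 40 member values and domain differences at or beyond 1, all kept their sign in the 320 recomputed values, and 36 stayed at or beyond 1 under every alternative run. The exceptions were E of H19 in ELA (0.47 with the median over probes), E of Airn in NPC/Neu (-0.90 with separate quantile normalization of each kind of array), the difference of H19 and Igf2 in NPC (0.81 with that normalization and 0.89 with the median over probes) and the change of Cdkn1c from NPC to NPC/Neu (0.80 when the processed signal was centered on the 75th percentile of each array). The cause was not tested. The count of coding values of E at or below -1 was 1 in place of 0 with the processed signal under either normalization, where E of Igf2 in ES cells was -1.25 and -1.85. The count of noncoding values at or above 1 was 1 in place of 2 with the median over probes. The count of noncoding values at or below -1, 13 of 20, ranged from 12 to 15, the domain differences below 0, 12 of 16, were 12 or 13 (H19 minus Igf2 in NPC/Neu was -0.03 with that separate normalization), and all 5 noncoding RNAs had a higher E in ELA than in ES cells under every alternative. Over all tested genes, E was at or beyond 1 less often in ELA (3.84% above, 3.38% below) than in ES cells (9.36% and 10.5%). Over all genes in place of those above background, E in ELA was at or above 1 for 2.45% and at or below -1 for 2.16%. Dim probes limit H19 and Airn most.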
